A study of Mus musculus with 64 samples.

Results

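RPB10, the product of the Polr2l gene, was targeted for degradation in mouse embryonic stem cells of the V6.5 line through an auxin-inducible degron, and polyadenylated RNA was sequenced 12 h later. The treated cells had received 500 µM of the auxin indole-3-acetic acid (IAA) for 12 h, and the cells they were set against, labelled untreated, had not. Both carried the RPB10 degron, and both had first been given doxycycline for 12 h to switch on OsTir1, the plant F-box protein that sends a degron-tagged protein to the proteasome when auxin is present. All cells grew with 15% serum and 2 kinase inhibitors, 3 µM CHIR99021 against GSK3 and 0.5 µM PD0325901 against MEK, which help to hold them in the stem cell state. The treatment protocol gives the doxycycline dose as 2 µg/ml and the text of the series gives 1 µg/ml. There were 2 IAA libraries and 2 untreated libraries, 4 of the 64 in the series, and these 4 columns were compared over every gene. Of 55335 genes in the count table, 17928 passed the filter on low counts and were tested. The RPB3, RPB11 and RPB12 degron lines and wild-type cells (WT), each with 2 IAA and 2 untreated libraries treated and labelled alike, were used to show where RPB10 cells differed. They and the other degron lines also entered the fit, whose spread was estimated over 52 libraries in 26 groups. The sources used here do not say whether WT cells carried OsTir1, whether the RPB10 line is 1 clone, or whether replicate libraries were made from different cultures. The p-values thus rest on the spread between replicate libraries of all these groups, which may be technical.

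RPB10 is one of the smallest subunits of RNA polymerase II (Pol II), a zinc-binding protein that is shared with RNA polymerases I and III. In the assembly of Pol II it joins a subcomplex with RPB3, RPB11 and RPB12, onto which the large catalytic subunits are built, so its loss bears on all the nuclear polymerases at once. Because messenger RNAs (mRNAs) differ in half-life and genes differ in the time a polymerase needs to cross them, the level of an mRNA some hours after a polymerase is disturbed depends on both.

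Levels are given as CPM, the usual measure of a gene's reads relative to all reads of its library, with library sizes corrected by TMM (trimmed mean of M values), and differences as log2 fold changes of IAA over untreated with their standard errors (SE). A gene was said to have risen or fallen where edgeR's quasi-likelihood test gave a Benjamini-Hochberg adjusted p under 0.05 over all genes tested. The 4 libraries held 4903178 and 5392195 counts in IAA cells, against 5500109 and 6456932 counts in untreated cells. All 8 markers of embryonic stem cells fixed for the check were detected, with summed levels of 4002 and 3905 CPM in IAA cells, against 4583 and 4538 CPM in untreated cells. Of 8 fibroblast markers 5 had no count in any of the 4 libraries (Col1a2, Col3a1, Postn, Lum and Dcn), and the 8 summed to 12.8 and 10.7 CPM in IAA cells, against 11.3 and 12.1 CPM in untreated cells. The markers of primitive endoderm (7.04 and 6.88 CPM, against 9.16 and 9.85 CPM), of mesoderm (5.19 and 6.55 CPM, against 11.8 and 13.7 CPM), of neuroectoderm (4.82 and 2.52 CPM, against 2.47 and 5.52 CPM) and of trophectoderm (1.85 and 1.68 CPM, against 0.704 and 0.746 CPM) were near the bottom of the range in IAA and in untreated cells. Among these lineage markers Eomes (-1.22) and Gata4 (-1.16) fell, and Pdgfra (1.74) and Cdx2 (3.25) rose, all at 12.7 CPM or less. The others did not pass or were not tested. As in any bulk sample, fewer cells of a kind and less RNA per cell cannot be told apart. Replicate pairs were compared by a chi-square per gene, where counting error alone gives about 1. It was 1.26 for the IAA pair and 1.20 for the untreated pair of RPB10. Among the other degron lines in the fit it was highest in the untreated pairs of RPB7 (13.4), RPB5 (7.50) and RPB2 (5.27). Among RPB10, RPB3, RPB11, RPB12 and WT cells the RPB11 untreated pair (6.81) and the RPB3 IAA pair (6.53) differed most. Counts of genes different from RPB3 and RPB11 are given with and without each library of those 2 pairs. The single-gene differences from RPB3 and RPB11 that are given below as passing also passed without each of them.

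After 12 h of IAA, 7059 of the 17928 genes tested had changed in RPB10 cells (39.4%). Of these 3255 had risen (18.2%) and 3804 had fallen (21.2%). Changes of at least 1 on the log2 scale were called upwards for 1197 genes (6.68%) and downwards for 1468 (8.19%). In WT cells given the same treatment 295 genes were called (1.65%). Most mRNAs of genes over 200 kb fell, as did most genes of cholesterol synthesis, of glycolysis and of DNA methylation and Polycomb. Nodal and most p53 targets rose. The count and its direction rest on scaling: with library sizes set by mRNAs of the mitochondrial genome, which another polymerase makes, 3393 genes were called, of which 20.5% rose, and the median of all genes moved to -0.24, while with library sizes set by total counts 7160 were called, of which 56.6% rose, against 46.1% with TMM. Mitochondrial mRNAs took 1.29% and 1.22% of counts in IAA cells, against 0.999% and 0.968% in untreated cells. Changes below are therefore relative to the median gene, and an overall rise or fall of mRNA per cell was not tested, since the count table holds 0 genes of the Drosophila cells that were added before extraction.

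Polr2l itself (chr7:141471860-141475132, minus strand of mm10, gene length 3.27 kb) rose at the mRNA level. It had 47.6 and 47.7 CPM in IAA cells, against 25.9 and 27.2 CPM in untreated cells, and the groups did not overlap. The log2 fold change was 0.84 ± 0.21 (adjusted p = 0.0011), and the response was higher than that of WT by 1.25 ± 0.34 (adjusted p = 0.0046). With mitochondrial scaling the rise no longer passed. The degron acts on the protein, so this mRNA is no check on depletion. Of the 12 genes that encode Pol II subunits 4 rose, 1 fell and 7 did not pass, with a median of 0.08, against 0.00 over all genes tested, a sign that turned to -0.17 with mitochondrial scaling. Polr2a, which encodes the largest and catalytic subunit RPB1, had 662 and 697 CPM in IAA cells, against 281 and 281 CPM in untreated cells (log2 fold change 1.27 ± 0.12, adjusted p = 2.4e-12), and its response was higher than in WT by 1.08 ± 0.16. Polr2d, for the stalk subunit RPB4, rose by 0.51 and Polr2g, for its partner RPB7, by 0.29 on the log2 scale, though Polr2g no longer passed without IAA replicate 1, IAA replicate 2 or untreated replicate 2, and neither Polr2d nor Polr2g passed with mitochondrial scaling. Polr2e, for the shared subunit RPB5, fell by 0.34 and no longer passed without IAA replicate 2 or untreated replicate 2 or with mitochondrial scaling. Polr2b, for the second-largest subunit, had 199.6 and 208 CPM in IAA cells, against 208 and 212 CPM in untreated cells and did not pass (adjusted p = 0.74).

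The highest and lowest genes were ranked among passing genes with a mean of at least 5 CPM over the 4 libraries. Genes whose IAA and untreated libraries overlapped, and symbols that are only model names, were left out of the ranking. The largest rise in it was that of Cyp1a1, a cytochrome P450 known as a target of the aryl hydrocarbon receptor. It had 29.1 and 34.1 CPM in IAA cells, against 0.176 and 0.299 CPM in untreated cells (log2 fold change 6.90 ± 0.35, adjusted p = 1.5e-19). Plk2 (chr13:110395046-110400844, plus strand), a polo-like kinase and a p53 target, had 113 and 116 CPM in IAA cells, against 3.70 and 3.88 CPM in untreated cells (log2 fold change 4.90 ± 0.17, adjusted p = 1.4e-26). Both genes stood far higher in IAA than in untreated cells. Btg2, an antiproliferative gene and p53 target, had 135 and 138 CPM in IAA cells, against 14.6 and 14.6 CPM in untreated cells (3.22 ± 0.12). H1f0, which encodes the linker histone H1.0, had 227 and 238 CPM in IAA cells, against 31.2 and 33.3 CPM in untreated cells (2.85 ± 0.10). In each of these genes the lower IAA library stood above the higher untreated one. Others among the 15 highest were the zinc finger genes Zfp750 (5.41), Zfp612 (4.26) and Zfp365 (3.58, with 34.8 and 35.1 CPM against 2.99 and 2.84 CPM), Serpine2, a secreted protease inhibitor (3.24), Ephx1, the microsomal epoxide hydrolase (3.01), and the homeobox gene Hoxb9 (2.86). Some genes had no count in either untreated library. Among them Mlana, a melanosome gene, had 18 and 16 counts in IAA libraries and was at least 12.4-fold higher, measured against a floor of 3 counts over both untreated libraries, and Cyp1b1, another aryl hydrocarbon receptor target, had 14 and 9 counts and was at least 8.47-fold higher.

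The lowest log2 fold change in the same ranking belonged to Mipol1 (chr12:57230427-57497199, plus strand), a gene of 267 kb. It had 0.741 and 1.18 CPM in IAA cells, against 16.6 and 19.7 CPM in untreated cells (log2 fold change -4.20 ± 0.30, adjusted p = 9.9e-16). Ntn1, which encodes the axon guidance cue netrin-1 and spans 191 kb, had 1.85 and 2.18 CPM in IAA cells, against 30.8 and 32.7 CPM in untreated cells (-3.96 ± 0.26). Pard3, a cell polarity gene of 548 kb, had 7.04 and 6.21 CPM in IAA cells, against 57.9 and 53.0006 CPM in untreated cells (-3.06 ± 0.16). In all 3 the higher IAA library stood below the lower untreated one by several fold. Pola1, the catalytic subunit of DNA polymerase alpha, lies in a gene of 327 kb (chrX:93304767-93632155, minus strand). Its mRNA stood at 17.05 and 17.1 CPM in IAA cells, against 123 and 123 CPM in untreated cells (-2.85 ± 0.13, adjusted p = 7.5e-22). Further low genes were Dip2c (-3.61, 392 kb), Sfmbt2, a Polycomb-related gene (-3.59, 225 kb), Lpp, a focal adhesion gene (-3.45, 599 kb), Cdkal1, a tRNA-modifying enzyme (-3.15, 664 kb), and Diaph2, a formin (-3.03, 716 kb). Of the 15 lowest genes 13 were over 100 kb long and 12 over 200 kb. The 15 highest were all shorter than 100 kb and ran between 2.06 and 67.0 kb. The exceptions among the low genes were Aire, the autoimmune regulator (-3.60, 13.6 kb), and Rab6b, a Golgi GTPase (-3.17, 73.5 kb).

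**Figure D1:**
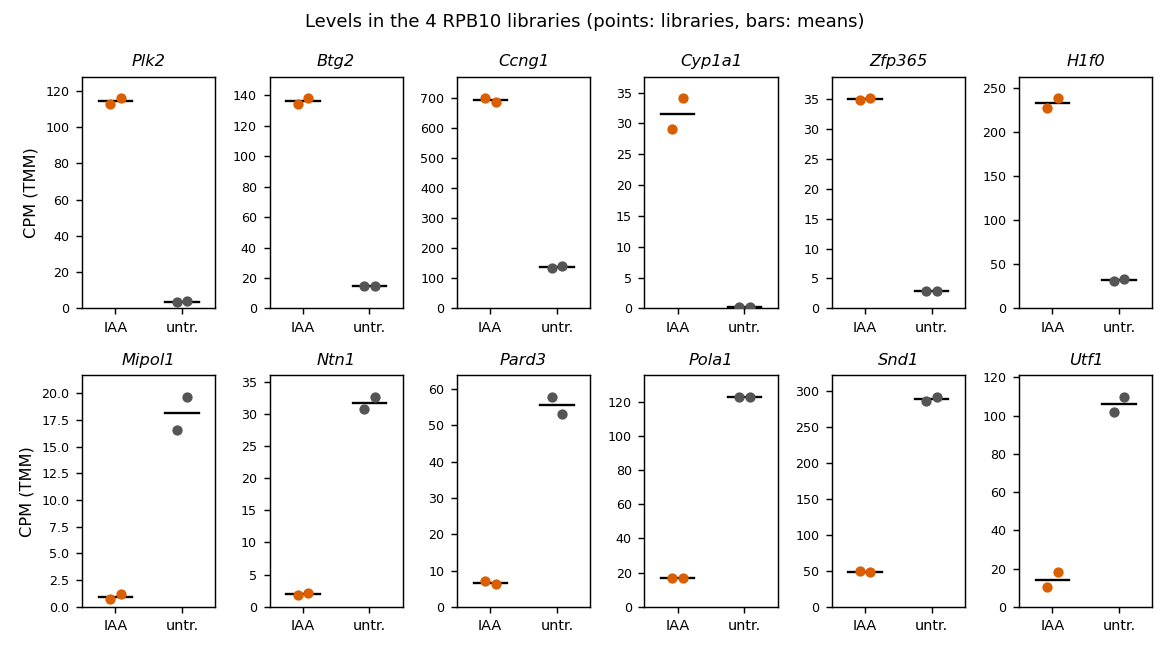
Level of 12 genes in each of the 4 RPB10 libraries, in CPM scaled by TMM on axes that start at 0. Points are libraries and bars are means of 2, with IAA 12 h on the left and untreated on the right. The upper genes stand higher in both IAA libraries than in either untreated one (Plk2 at 113 and 116, against 3.70 and 3.88 CPM) and the lower genes stand lower in both (Snd1 at 49.1 and 48.2, against 286 and 292 CPM).

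Gene length was then taken as a measure, in classes chosen after the low genes had been seen, for the 14253 protein-coding genes tested. Length is the annotated span from the start to the end of the gene, introns included. Median log2 fold changes went down in steps with length: 0.16 for 1780 genes of up to 5 kb, 0.12 for 1944 genes of 5 to 10 kb, 0.11 for 2899 genes of 10 to 20 kb and 0.01 for 3922 genes of 20 to 50 kb. They were -0.23 for 2002 genes of 50 to 100 kb, -0.72 for 1135 genes of 100 to 200 kb, -1.34 for 305 genes of 200 to 300 kb, -1.91 for 178 genes of 300 to 500 kb and -1.94 for 88 genes above 500 kb. The classes above 50 kb were lower than 0 with every scaling, while mitochondrial scaling turned the shorter classes to between -0.07 and -0.23 and kept the order (-2.21 above 500 kb). Leaving out any 1 of the 4 libraries moved the median of the 200 to 300 kb class between -1.36 and -1.29. Restricted to genes averaging at least 5 CPM, a filter added after seeing the data, the same class stood at -1.36 over 186 genes.

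Of the 571 protein-coding genes over 200 kb 17 rose (2.98%) and 400 fell (70.1%), against 2713 that rose (19.8%) and 3022 that fell (22.1%) among the 13682 shorter ones. Their summed level was 5343 and 5467 CPM in IAA cells, against 13118 and 12885 CPM in untreated cells. WT cells had 14505 and 14654 CPM with IAA, against 15398 and 15982 CPM untreated. The RPB10 IAA libraries were the low ones, with no overlap with untreated RPB10 or with either WT group. Of the 145 among them that averaged at least 20 CPM 127 fell and 8 rose, with a median of -1.31. The most abundant ones, chosen after their values were seen, included Snd1, a tudor and nuclease domain protein of the RNA-induced silencing complex, in a gene of 460.0 kb with 49.1 and 48.2 CPM in IAA cells, against 286 and 292 CPM in untreated cells (-2.57 ± 0.09, adjusted p = 1.9e-26). Dst, a cytoskeletal linker of 400.4 kb, had 59.7 and 61.5 CPM in IAA cells, against 316 and 287 CPM in untreated cells (-2.31 ± 0.18). Macf1, of the same spectraplakin family, had 92.8 and 109 CPM in IAA cells, against 318 and 289 CPM in untreated cells (-1.58 ± 0.15).

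Not every long gene fell. Ulk4, a pseudokinase gene of 322 kb, had 217 and 219 CPM in IAA cells, against 163 and 166 CPM in untreated cells and rose by 0.41 ± 0.09 on the log2 scale. Palld, an actin-binding protein gene of 391 kb, had 78.6 and 78.9 CPM in IAA cells, against 47.9 and 53.1 CPM in untreated cells (0.64 ± 0.11). Spag16, a cilium gene of 898 kb, had 7.04 and 5.71 CPM in IAA cells, against 1.06 and 1.34 CPM in untreated cells (2.37 ± 0.44). These 3 rose without overlap between the groups, though Ulk4 and Palld no longer passed with mitochondrial scaling, and all were chosen after their values were seen. The counts are per annotated gene, with no way to tell a short isoform from the whole span. Outside protein-coding genes the 41 noncoding genes over 100 kb had a median of 0.10, with 8 risen and 7 fallen. Their levels were low, with a median of 2.16 CPM. The 15 of them that averaged at least 5 CPM had a median of -0.31, so no direction is given for this class.

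The number of exons went with length. The 389 single-exon protein-coding genes had a median of 0.44 (127 rose and 27 fell), and the 1914 genes with more than 20 exons in their fullest transcript had a median of -0.39 (176 rose and 933 fell). Between genes of 10 to 30 kb the spread by exon number was narrower, with a median of 0.16 for 355 genes of 2 or 3 exons and -0.02 for 317 genes of more than 20. Across the 14253 protein-coding genes Spearman's rho between gene length and log2 fold change was -0.356 in RPB10 cells. Genes are not independent replicates, and this is a description of 4 libraries.

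**Figure D2:**
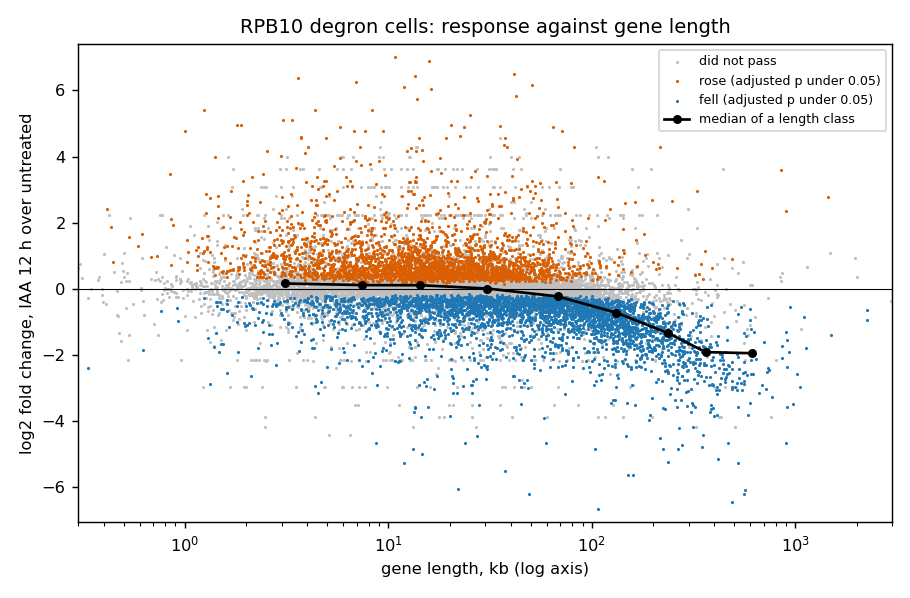
Log2 fold change of IAA 12 h over untreated in RPB10 cells against gene length in kb (log axis), 1 point per protein-coding gene, with black points for the median of each length class. The medians run between 0.16 in the shortest class and -1.94 in the longest, and genes that fell crowd at the long end.

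The fall of long genes was larger than in the partner lines and in WT. For genes over 200 kb the median was -1.54 in RPB10 cells, against -0.08 in RPB3, -0.39 in RPB11, -0.14 in RPB12 and -0.15 in WT cells. Of the 571 genes 344 fell further than in WT and 8 less far or rose more (14.7% and 10.9% over all genes tested). The same count was 330 lower and 9 higher against RPB3 (13.5% and 12.9% over all genes), 265 and 3 against RPB11 (8.92% and 6.34%), and 328 and 11 against RPB12 (13.6% and 10.6%). Without RPB3 IAA replicate 1 or 2 the count against RPB3 was 321 and 6 or 286 and 10, and without RPB11 untreated replicate 1 or 2 that against RPB11 was 251 and 4 or 244 and 4. Pard3 is an example: its response of -3.06 stood against -0.62 in RPB3, -0.59 in RPB11, -0.38 in RPB12 and -0.53 in WT cells, and the difference from RPB3 was -2.44 ± 0.20 (adjusted p = 3.1e-13). A fall with length was also found in others of the 12 degron lines. RPB8 cells, looked at after the pattern was seen, had a median of -1.27 over the same 571 genes and 0.87 over genes of up to 5 kb, with a Spearman's rho of -0.471. RPB5 and RPB1 cells had medians of -0.78 and -0.69 over 200 kb. No test of RPB10 against these 3 lines was made. Untreated RPB10 cells already held less of the long mRNAs than untreated WT cells, with a median of -0.39 over the 571 genes (201 lower and 18 higher, beside 15.8% and 16.0% over all genes tested), and that comparison shares the untreated RPB10 libraries with the response.

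**Figure D3:**
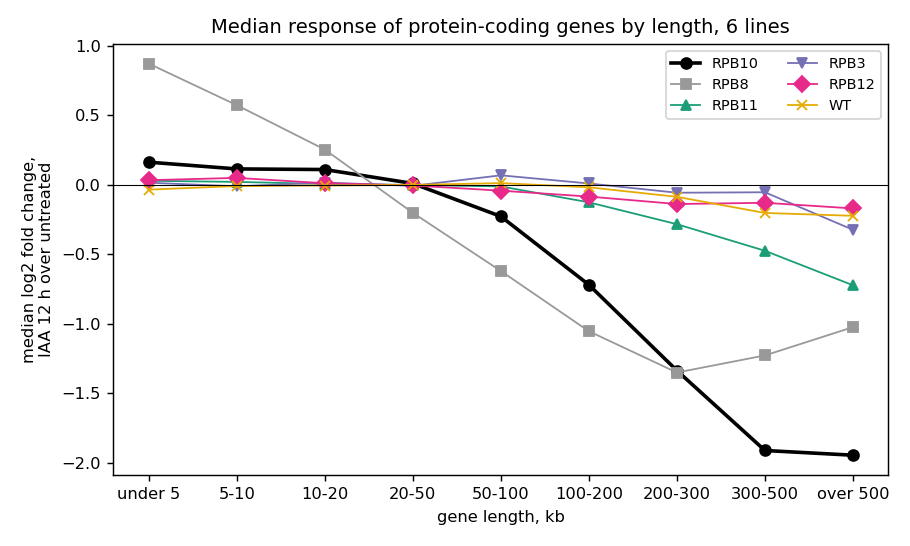
Median log2 fold change of IAA 12 h over untreated in protein-coding genes by length class in kb, for RPB10, RPB8, RPB11, RPB3, RPB12 and WT cells. RPB10 reaches -1.94 above 500 kb, whereas RPB3, RPB11, RPB12 and WT stay between 0.07 and -0.72 in every class.

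Gene lists gave a second view, each described by how many of its tested members rose or fell, beside 18.2% and 21.2% over all genes, and by its median, beside 0.00. The medians named with a direction in the next paragraphs kept their sign under RLE, total-count and mitochondrial scaling, except where stated. With mitochondrial scaling 42 of the 50 lists had fewer risen members and 38 had fewer fallen ones. No direction is given for Wnt targets, the Bcl2 family, the 2-cell-like state, feedback genes of FGF-ERK and LIF-STAT3 signalling, SR proteins, Integrator, mitosis, mitochondrial ribosomal proteins or the respiratory chain, whose counts moved by over 1.5 times when 1 library was left out or whose median turned with the scaling.

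p53 targets rose as a group. Of 28 tested 25 rose, 2 fell (Trp53 itself at -0.40 and Sesn1 at -0.63, named after their values were seen) and 1, the pro-apoptotic Bax (0.21, adjusted p = 0.27), did not pass, and the median was 1.20. Their summed level was 3906 and 3920 CPM in IAA cells, against 1604 and 1604 CPM in untreated cells, while WT cells had 1648 and 1656 CPM with IAA, against 1658 and 1601 CPM untreated. The RPB10 IAA libraries stood above all other libraries in the plot of summed levels. Ccng1, which encodes cyclin G1, had 700.5 and 688 CPM in IAA cells, against 134 and 141 CPM in untreated cells (2.33 ± 0.10, adjusted p = 3.5e-23). Trp53inp1, a p53-induced nuclear protein, had 374 and 403 CPM in IAA cells, against 78.2 and 69.3 CPM in untreated cells (2.40 ± 0.12). Pmaip1, the BH3-only death gene also called Noxa, rose by 2.57, Cdkn1a, the cell cycle inhibitor p21, by 1.28 and Mdm2, the ubiquitin ligase that restrains p53, by 1.23, the last 2 chosen after their values were seen. Mitochondrial scaling left 19 of the 28 risen. In RPB3 cells the list had a median of 1.03, in RPB11 cells 0.41, in RPB12 cells -0.08 and in WT cells 0.00. The rise was not particular to RPB10, since the median was higher in RPB1 (1.76), RPB5 (1.73) and RPB8 cells (1.32). It was lower than 1.20 in RPB2, RPB4, RPB6, RPB7 and RPB9 cells, and RPB10 was not tested against these lines. Of the 28 members 24 responded more than in WT (10.9% over all genes), 11 more than in RPB3 (12.9%), 21 more than in RPB11 (6.34%) and 22 more than in RPB12 (10.6%). Without RPB3 IAA replicate 1 or 2 the count was 11 or 10, and without RPB11 untreated replicate 1 or 2 it was 19 or 20.

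The promoter of Ccng1 is shown because it holds a sequence of the p53 half-site, as 7 of the 20 members with a RefSeq promoter (35.0%) did, against 822 of all 12040 tested genes with one (6.83%). The half-site was in 7.65% of the genes that rose and 5.85% of those that fell. In the other lists searched the share ran between 4.35% and 23.5%. The highest of these was cholesterol synthesis (4 of 17), a list that fell. A promoter here is the stretch of 250 bases before to 50 bases after the annotated start in RefSeq's GRCm38.p6 annotation (the assembly called mm10), and the half-site was searched on both strands. Capitals mark the half-site in chr11:40755237-40755536, minus strand. A match is a description of letters and not a measured site.
Ccng1: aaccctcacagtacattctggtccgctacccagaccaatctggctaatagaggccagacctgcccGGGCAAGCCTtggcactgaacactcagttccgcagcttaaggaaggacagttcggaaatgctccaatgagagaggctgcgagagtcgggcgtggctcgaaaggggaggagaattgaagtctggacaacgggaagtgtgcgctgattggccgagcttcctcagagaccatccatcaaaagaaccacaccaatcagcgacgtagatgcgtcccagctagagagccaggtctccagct

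Immediate-early genes, which answer signals without new protein, followed with 18 of 37 risen and 3 fallen and a median of 0.56. Rhob, a small GTPase gene, had 46.9 and 46.5 CPM in IAA cells, against 7.22 and 7.91 CPM in untreated cells (2.62 ± 0.14), without overlap. Jun, of the AP-1 factor, had 13.2 and 12.4 CPM in IAA cells, against 1.76 and 4.18 CPM in untreated cells (2.05 ± 0.24), and Klf10 had 159.6 and 173 CPM in IAA cells, against 96.7 and 91.97 CPM in untreated cells (0.82 ± 0.08). Btg2 belongs to this list as well as to the p53 targets. Mitochondrial scaling left 7 risen, and leaving out IAA replicate 1 or untreated replicate 1 left 1 fallen. Aryl hydrocarbon receptor targets rose in 7 of 8, among them Nqo1 (0.38) and Tiparp (0.49), though mitochondrial scaling left 2. Cyp1a1 also rose in the other cells given IAA, by 6.20 in RPB3, 5.55 in RPB11, 5.14 in RPB12 and 2.58 in WT cells. Its difference from WT was 4.32 ± 1.13 (adjusted p = 0.0034) and no longer passed without WT untreated replicate 1 (3.41, adjusted p = 0.28), and its differences from the other 3 lines did not pass.

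In the Nodal and BMP pathways 8 of 19 rose and 3 fell, with a median of 0.42. Nodal, a secreted TGF-beta ligand of the early embryo, had 97.8 and 96.4 CPM in IAA cells, against 38.2 and 38.2 CPM in untreated cells (1.34 ± 0.12, adjusted p = 2.6e-12), and its response exceeded that of WT by 1.41 ± 0.18 and that of RPB3 by 0.90 ± 0.18, the last turning to -0.24 with mitochondrial scaling, where the 2 RPB3 IAA libraries held 0.534% and 1.72% mitochondrial mRNA. Among the targets and mediators Id2, a dominant-negative helix-loop-helix factor, rose by 1.95 and Smad1, a BMP signal transducer, by 0.88. Leaving out IAA replicate 2 left 5 risen, and mitochondrial scaling left 3. Of 23 Hox genes tested 7 rose and 1 fell (Hoxc4, -0.71, named after its value was seen and not passing with DESeq2 or without IAA replicate 2 or either untreated library), and leaving out IAA replicate 2 left 3 risen and leaving out untreated replicate 1 left 4. Hoxb9 had 19.1 and 17.6 CPM in IAA cells, against 1.94 and 2.99 CPM in untreated cells. More Hox genes rose in RPB1 (17), RPB5 (14), RPB8 (14), RPB3 (13) and RPB9 cells (8) than in RPB10 cells. Fewer rose in RPB11 (6), RPB12 (3) and WT cells (1). Against WT 1 Hox response was higher (10.9% over all genes) and 1 lower (14.7%).

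**Figure D4:**
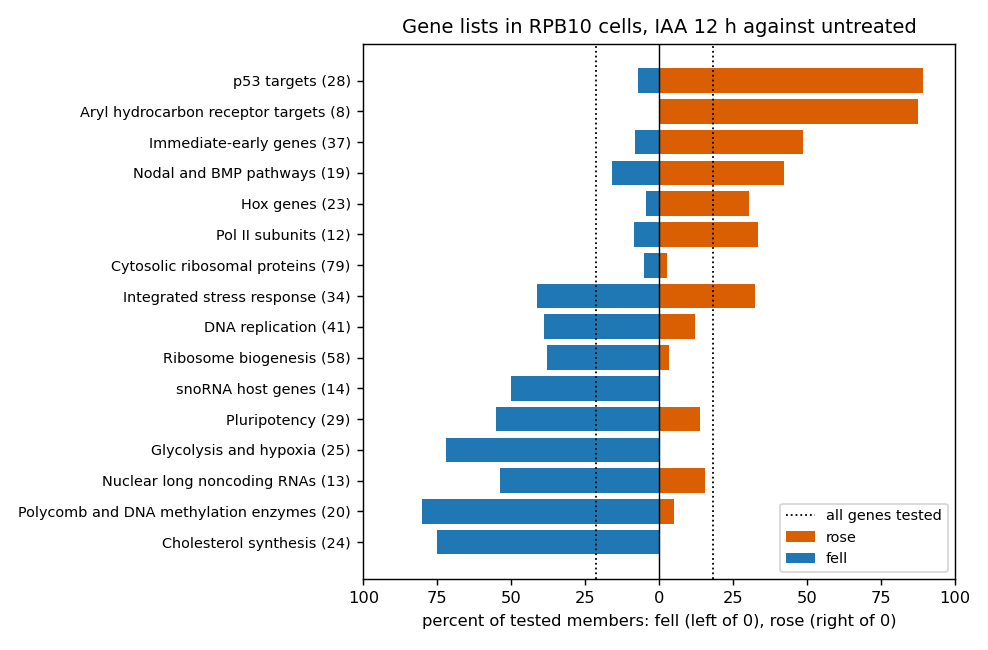
Percent of tested members that fell (left) and rose (right) after IAA in 16 gene lists of RPB10 cells, with the number of tested members in brackets. Dotted lines are the shares over all genes tested, 21.2% lower and 18.2% higher, and p53 targets (25 of 28 risen) and cholesterol synthesis (18 of 24 fallen) lie far outside them.

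Genes of cholesterol metabolism fell as a group. None of 24 members tested rose, 18 fell and 6 did not pass, with a median of -0.70. Hmgcs1, which makes the HMG-CoA that enters the pathway, had 154 and 162 CPM in IAA cells, against 306 and 304 CPM in untreated cells (-0.95 ± 0.08, adjusted p = 5.2e-14). Lss, lanosterol synthase, had 85.6 and 91.3 CPM in IAA cells, against 173 and 185 CPM in untreated cells (-1.02 ± 0.10). Stard4, a sterol carrier, fell by 1.22. None of these 3 had overlapping groups. Insig1, which holds the regulator SREBP in the endoplasmic reticulum, did not pass (-0.19, adjusted p = 0.097). The summed level of the list was 1973 and 2007 CPM in IAA cells, against 3109.85 and 3141 CPM in untreated cells. WT cells had 2194 and 2155 CPM with IAA, against 1997 and 1989 CPM untreated. The untreated RPB10 libraries were the high ones, above every library of the RPB3, RPB11, RPB12 and WT cells, and the RPB10 IAA libraries lay near untreated WT. Of the 24 genes 22 were higher in untreated RPB10 than in untreated WT cells (16.0% over all genes) and none lower, with a median of 0.70. Both comparisons share the untreated RPB10 libraries. The response was lower than in WT for 20 members (14.7% over all genes), than in RPB3 for 15 (13.5%), than in RPB11 for 15 (8.92%) and than in RPB12 for 18 (13.6%), and higher for none. Without RPB3 IAA replicate 1 or 2 the count against RPB3 was 11 or 12, and without RPB11 untreated replicate 1 or 2 that against RPB11 was 13 or 14.

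The promoters of Hmgcs1 and Lss are shown as members that fell together. Searched on both strands, the CCAAT box, the binding sequence of NF-Y, was in 15 of 17 promoters of the list in RefSeq (88.2%), against 4697 of 12040 over tested genes (39.0%), 38.9% of the genes that rose and 39.1% of those that fell. The sterol regulatory element TCACNCCAC was in 1 of the 17 (5.88%), against 1.17%. Capitals mark CCAAT boxes (written ATTGG where they lie on the other strand) and, in Hmgcs1, the sterol regulatory element. Hmgcs1 lies at chr13:119690101-119690400, plus strand, and Lss at chr10:76531355-76531654, plus strand. The Lss promoter holds no sterol regulatory element, and in Hmgcs1 the 2 motifs do not overlap.
Hmgcs1: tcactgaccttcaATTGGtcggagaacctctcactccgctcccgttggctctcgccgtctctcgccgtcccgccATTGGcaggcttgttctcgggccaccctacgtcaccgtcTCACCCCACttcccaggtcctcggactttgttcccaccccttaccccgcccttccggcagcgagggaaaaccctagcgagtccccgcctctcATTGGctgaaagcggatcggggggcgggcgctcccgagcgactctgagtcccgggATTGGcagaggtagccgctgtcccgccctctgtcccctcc
Lss: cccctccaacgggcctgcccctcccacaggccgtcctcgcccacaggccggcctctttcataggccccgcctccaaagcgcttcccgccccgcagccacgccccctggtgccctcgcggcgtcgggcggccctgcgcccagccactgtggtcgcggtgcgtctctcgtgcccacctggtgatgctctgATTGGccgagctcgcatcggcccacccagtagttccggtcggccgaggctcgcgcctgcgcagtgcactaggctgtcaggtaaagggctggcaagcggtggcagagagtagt

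**Figure D5:**
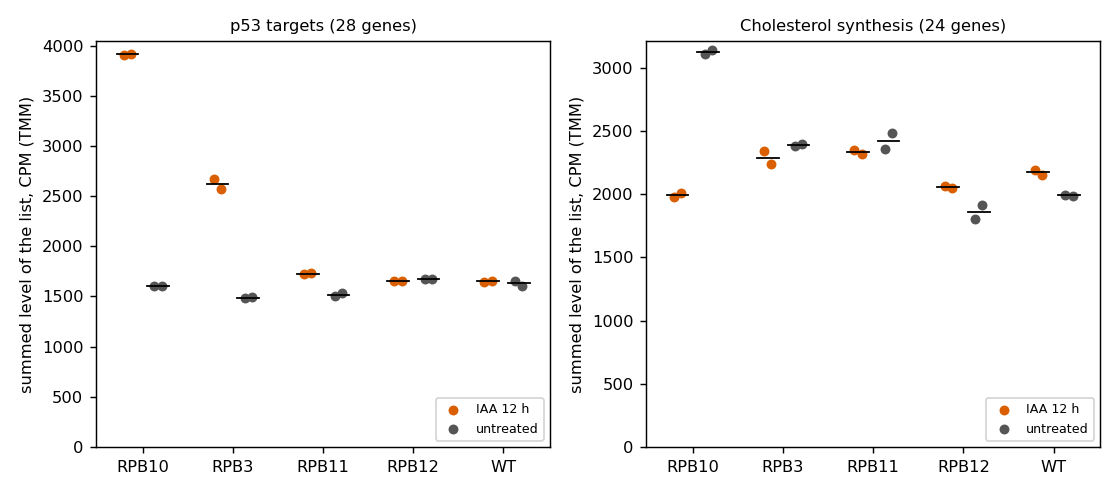
Summed level of 28 p53 targets and of 24 cholesterol synthesis genes in CPM scaled by TMM, in each library of RPB10, RPB3, RPB11, RPB12 and WT cells, with IAA 12 h left of untreated. Bars are means of 2. The RPB10 IAA libraries are highest for p53 targets (3906 and 3920 CPM) and the RPB10 untreated libraries are highest for cholesterol synthesis (3109.85 and 3141 CPM).

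Glycolysis and hypoxia genes also fell. None of 25 rose and 18 fell, with a median of -0.52. Pdk1, which shuts off pyruvate dehydrogenase, had 26.7 and 27.2 CPM in IAA cells, against 87.7 and 85.4 CPM in untreated cells (-1.68 ± 0.10). Slc2a1, the glucose transporter GLUT1, had 83.4 and 94.4 CPM in IAA cells, against 190.4 and 193 CPM in untreated cells (-1.11 ± 0.10), and Hk1, a hexokinase, had 61.7 and 61.8 CPM in IAA cells, against 141 and 144 CPM in untreated cells (-1.21 ± 0.11). The groups did not overlap in any of them. Summed levels were 11887.5 and 11608 CPM in IAA cells, against 14469 and 14029.9 CPM in untreated cells, and 11759 and 11442 CPM in WT cells with IAA, against 11704.5 and 11179 CPM in untreated WT cells. RPB3 cells had 10807 and 10428 CPM with IAA, against 15014 and 14664 CPM untreated, so that untreated RPB10 and RPB3 cells were both above WT. Mitochondrial scaling left 11 fallen. The list's response was lower than in WT for 14 members (14.7% over all genes), than in RPB11 for 9 (8.92%) and than in RPB12 for 11 (13.6%), with 1 higher than in RPB12 (10.6%). Against RPB3 6 members were lower (13.5%) and 5 higher (12.9%). Without RPB3 IAA replicate 1 or 2 there were 6 lower in each case, and without RPB11 untreated replicate 1 or 2 the count against RPB11 was 6 or 11.

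Of the genes that mark the pluripotent state 16 of 29 fell and 4 rose, with a median of -0.36. The list also fell in part in other cells given IAA, in 10 of 29 with a median of -0.23 in WT cells (1.65% of all genes called there), in 15 in RPB11 (23.7%) and in 12 in RPB12 (4.79%). The RPB10 response was lower than that of WT for 8 members (14.7% over all genes) and higher for 6 (10.9%). Utf1, a chromatin-bound stem cell factor, had 10.2 and 18.1 CPM in IAA cells, against 102 and 110.0 CPM in untreated cells (-2.89 ± 0.18, adjusted p = 1.1e-17). Tdh, threonine dehydrogenase, had 148 and 152 CPM in IAA cells, against 434 and 425 CPM in untreated cells (-1.52 ± 0.08), and Lin28a, an RNA-binding inhibitor of let-7, had 129.7 and 138 CPM in IAA cells, against 279 and 263 CPM in untreated cells (-1.01 ± 0.08). The IAA libraries were the low ones in all 3. The core factors stayed closer: Pou5f1 had 993 and 984 CPM in IAA cells, against 1033 and 1013 CPM in untreated cells and Nanog had 483 and 471 CPM in IAA cells, against 531 and 545 CPM in untreated cells, and neither passed (adjusted p = 0.82 and 0.079). Tfcp2l1 (-0.76), Esrrb (-0.51) and Zfp42 (-0.36) fell and Klf4 rose (0.34), the last no longer passing without IAA replicate 1 or untreated replicate 1. The log2 fold change of Utf1 was -2.72 in RPB3, -3.33 in RPB11, -1.79 in RPB12 and -1.32 in WT cells. Leaving out IAA replicate 1 or untreated replicate 1 left 2 of the list risen.

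Polycomb and DNA methylation enzymes fell in 16 of 20 and rose in 1 (Phf1, 0.57, named after its value was seen and not passing without IAA replicate 1 or untreated replicate 2), with a median of -0.53. Jarid2, a cofactor of Polycomb repressive complex 2 in a gene of 192 kb, had 66.3 and 63.97 CPM in IAA cells, against 164 and 161 CPM in untreated cells (-1.32 ± 0.09). Dnmt3l, the cofactor of the de novo methyltransferases, had 82.3 and 80.1 CPM in IAA cells, against 154 and 159 CPM in untreated cells (-0.95 ± 0.11), and Dnmt3a and Uhrf1, which recruits Dnmt1 to replicated DNA, fell by 0.84 and 0.65. Groups did not overlap. In other cells given IAA 14 of the 20 fell in RPB3 (median -0.42), 10 in RPB11 (-0.28), 6 in RPB12 (-0.05) and 2 in WT (-0.09). The RPB10 response was lower than in WT for 10 members (14.7% over all genes) and higher for none. Against RPB3 3 members were lower (13.5%) and 1 higher (12.9%). The median was lower than in RPB10 in RPB8 (-1.22), RPB1 (-0.82) and RPB5 cells (-0.66), against which RPB10 was not tested. The list's genes are long, with a median length of 39.7 kb, and the median of its members less the median of their length class was -0.45. For p53 targets the same length-adjusted value was 1.18, for cholesterol synthesis -0.69 and for glycolysis -0.53.

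Nuclear long noncoding RNAs fell in 7 of 13 and rose in 2 (1 when any one of the 4 libraries was left out), with a median of -0.59. Rian and Mirg, noncoding RNAs of the imprinted Dlk1-Dio3 domain on chromosome 12, were both low after IAA. Rian had 70.2 and 78.1 CPM in IAA cells, against 366 and 340.1 CPM in untreated cells (-2.25 ± 0.10), and Mirg had 1.85 and 1.85 CPM in IAA cells, against 13.9 and 14.3 CPM in untreated cells (-2.92 ± 0.28). Firre, which helps place the X chromosome in the nucleus, fell by 1.15. Neat1, the scaffold of paraspeckles, had 258 and 258 CPM in IAA cells, against 134 and 134 CPM in untreated cells and rose by 0.95 ± 0.14. Rian fell further than in RPB3 (difference -1.99 ± 0.13) and than in WT (-1.94 ± 0.14). Over the 13 RNAs of the list the median was -0.51 in RPB11, -0.40 in RPB12, -0.30 in WT and -0.26 in RPB3 cells. Of the 13 responses 4 were lower than in WT (14.7% over all genes) and 1 higher (10.9%). Host genes of small nucleolar RNAs fell in 7 of 14 with none risen (median -0.40), among them Gas5 (-0.68). Their median was -1.77 in RPB3, -0.26 in RPB11, 0.03 in RPB12 and -0.01 in WT cells. Of the 14 responses 9 were higher than in RPB3 (12.9% over all genes) and 1 lower (13.5%), and 5 were lower than in WT (14.7%). The median was also lower than in RPB10 in RPB2 (-1.63), RPB9 (-1.61), RPB1 (-1.11), RPB5 (-1.02), RPB7 (-0.84) and RPB6 cells (-0.48). Over biotypes, 28 of 95 noncoding RNAs from bidirectional promoters rose (29.5%) and 2 fell (2.11%), with a median of 0.58. Of 612 lincRNAs 124 rose (20.3%) and 43 fell (7.03%), with a median of 0.50. Over all genes tested 18.2% rose and 21.2% fell. Median levels of these 2 classes were only 1.51 and 1.06 CPM. Members averaging at least 5 CPM had medians of 0.36 over 21 genes and 0.11 over 123. The class medians were 1.11 and 0.82 in RPB3, 0.60 and 0.28 in RPB11, and -0.13 and -0.07 in RPB12 cells.

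The integrated stress response was mixed, with 11 of 34 risen and 14 fallen and a median of -0.13. Stc2, a secreted glycoprotein, had 18.9 and 19.3 CPM in IAA cells, against 6.69 and 7.17 CPM in untreated cells (1.46 ± 0.18), and Sesn2, an inhibitor of mTORC1 that p53 also induces, had 166 and 164 CPM in IAA cells, against 70.6 and 74.8 CPM in untreated cells (1.18 ± 0.09). Asns, asparagine synthetase, had 677 and 653 CPM in IAA cells, against 1024 and 1031 CPM in untreated cells (-0.63 ± 0.07). Here RPB10 cells parted from the partner lines, whose medians were -1.26 in RPB3, -0.66 in RPB11 and -0.55 in RPB12, while WT cells had a median of -0.12. The response of 32 members was higher than in RPB3 and of none lower, of 23 higher than in RPB11 and of 19 higher than in RPB12, beside 12.9%, 6.34% and 10.6% over all genes. With mitochondrial scaling only 58 of the 17928 genes tested were higher than in RPB3, 55 than in RPB11 and 205 than in RPB12. How many members of the list were among them is not given, so these counts of members rest on TMM. With TMM, 8 members were higher than in WT (10.9%) and 8 lower (14.7%). Without RPB3 IAA replicate 1 or 2 there were 32 higher than in RPB3 in each case, and without RPB11 untreated replicate 1 or 2 there were 23 or 22 higher than in RPB11.

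Of 79 cytosolic ribosomal protein genes 2 rose (1 without IAA replicate 1 or either untreated library) and 4 fell, with a median of -0.01 (0.08 with total counts). Of these genes 45 responded more than in RPB3 (12.9% over all genes), where the median was -0.43, and none less. With mitochondrial scaling only 58 of all 17928 genes tested were higher than in RPB3. The count of 45 is given for TMM only. Without RPB3 IAA replicate 1 or 2 the count was 63 or 37. Many of these genes have near-identical pseudogene copies, whose reads the counting could have split. Ribosome biogenesis genes fell in 22 of 58 and rose in 2, with a median of -0.19, and leaving out untreated replicate 2 left 11 fallen, IAA replicate 2 14, mitochondrial scaling 6 and total-count scaling 10. Ncl, nucleolin, fell by 0.56. Of 31 proteasome genes 8 fell and none rose (median -0.11). DNA replication genes fell in 16 of 41 and rose in 5, with a median of -0.13, led by Pola1.

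In the transcription machinery, general transcription factors rose in 9 of 30 and fell in 5 (3 without either IAA library and 2 without untreated replicate 2), with a median of 0.08 that turned to -0.18 with mitochondrial scaling. Taf13, a TFIID subunit, had 85.99 and 77.9 CPM in IAA cells, against 32.4 and 28.8 CPM in untreated cells (1.42 ± 0.12), Taf12 rose by 1.07 and Gtf2e1, of TFIIE, by 0.86, and Mnat1, of the TFIIH kinase, in a gene of 150.3 kb, fell by 1.05. Of 32 pausing and elongation factors 4 rose and 8 fell, shares near those over all genes. Hexim1, which holds the elongation kinase P-TEFb inactive with the 7SK RNA, had 137 and 133 CPM in IAA cells, against 47.7 and 43.3 CPM in untreated cells (1.57 ± 0.11, adjusted p = 2.3e-16), and Mepce, which caps 7SK, rose by 0.94. Aff1, a scaffold of the super elongation complex, fell by 0.99. Mediator had 9 of 33 risen, with Med21 at 0.88, and 11 fallen, with Med13l at -1.24, and without IAA replicate 2 there were 5 and 7, with 7 fallen also without each of the other 3 libraries. Of the 19 subunits of Pol I and Pol III, which share RPB10, 4 rose and 5 fell, again near the all-gene shares, with Polr3b at -0.61, and leaving out any 1 of the 4 libraries left 2 risen, and IAA replicate 1 also 2 fallen. Of their 24 factors tested 5 rose, 3 fell and 16 did not pass, beside 18.2% and 21.2% over all genes. The median was -0.01 and Snapc5 had the highest value, 1.39. These counts also moved when 1 library was left out, and the median turned to 0.08 with total counts. Factors of polymerase assembly and nuclear import rose in 2 of 19 (Pdrg1 at 1.08 and Gpn3, a GTPase of polymerase import, at 0.80) and fell in 4, among them Ruvbl1 (-0.50).

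Core spliceosome genes fell in 12 of 39 and rose in 1, with Sf3b3 at 245 and 248 CPM in IAA cells, against 643 and 634 CPM in untreated cells (-1.37 ± 0.07). In the mRNA decay machinery 17 of 47 fell and 12 rose. Cnot1, the scaffold of the CCR4-NOT deadenylase, had 347 and 360.0 CPM in IAA cells, against 947 and 898 CPM in untreated cells (-1.38 ± 0.10), and Edc4, a scaffold of decapping, had 289 and 283 CPM in IAA cells, against 152 and 146 CPM in untreated cells (0.94 ± 0.08). The 2 moved in opposite directions, each without overlap. Chaperone genes fell in 9 of 22 and rose in 4 (2 without IAA replicate 2), with Hspa8, the constitutive Hsc70, at 959 and 935 CPM in IAA cells, against 2445 and 2362 CPM in untreated cells (-1.34 ± 0.07), and the factor Hsf1 rose by 0.57. Lysosome and autophagy genes rose in 10 of 31 and fell in 7 (4 without IAA replicate 1, median 0.11, -0.15 with mitochondrial scaling), with Flcn at 0.98 and Ulk1 at 0.72. Among the polyadenylated histone variants H1f0 and H3f3b (0.85) rose and H2afx, the variant phosphorylated at DNA breaks, had 60.8 and 63.3 CPM in IAA cells, against 203 and 219 CPM in untreated cells (-1.76 ± 0.13).

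Set against WT cells, the response of RPB10 cells differed for 4589 genes (25.6%), with 1953 higher (10.9%) and 2636 lower (14.7%). Of the 15 highest and lowest genes named above, Plk2 (4.71 ± 0.33) and Zfp612 (4.80 ± 0.57) led upwards and Mipol1 (-4.35 ± 0.37) and Ntn1 (-3.84 ± 0.33) downwards. With mitochondrial scaling 1133 genes differed.

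Against RPB3, its partner in assembly, 4740 genes differed (26.4%), 2318 higher (12.9%) and 2422 lower (13.5%), and 4496 or 4163 without RPB3 IAA replicate 1 or 2. With mitochondrial scaling 7014 differed, of which 0.83% were higher, and the median moved to -1.05, a scaling that rests on RPB3 IAA libraries with 0.534% and 1.72% mitochondrial mRNA. The largest positive differences were in genes that fell in RPB3 cells and not in RPB10 cells: Ubap1l (5.88 ± 0.48), Chac1, a glutathione-degrading enzyme of the stress response (5.78 ± 0.31), Vldlr, a lipoprotein receptor (4.53 ± 0.45), and Nupr1, a stress-induced nuclear protein (3.84 ± 0.24). Chac1 had 34.1 and 34.3 CPM in IAA cells, against 20.6 and 23.4 CPM in untreated cells, and its response was 0.63 ± 0.16 in RPB10 and -5.16 in RPB3 cells. Among the most negative were Rfx3 (-3.39 ± 0.42, 249 kb) and Robo1 (-3.28 ± 0.29, 738 kb), the receptor of Slit guidance cues.

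RPB11 was the nearest of the partners by count, with 2736 genes different (15.3%), 1137 higher (6.34%) and 1599 lower (8.92%), and 2446 or 2702 without RPB11 untreated replicate 1 or 2. The RPB11 response was itself smaller, with 4240 genes called (23.7%) against 7059. Plk2 stood higher by 3.22 ± 0.33, Stc2 by 3.13 ± 0.25 and Tspoap1 by 3.05 ± 0.42, and Mipol1 was lower (difference -3.40 ± 0.39). Against RPB12, in which 858 genes were called after IAA (4.79%), 4339 genes differed (24.2%), 1903 higher (10.6%) and 2436 lower (13.6%). Zfp365 led upwards (4.17 ± 0.43) with Pmaip1 (3.73 ± 0.25), and Mipol1 (-4.44 ± 0.38) and Sfmbt2 (-3.73 ± 0.32) downwards. Mitochondrial scaling left 661 genes different from RPB11 and 1263 from RPB12. Across the 17928 genes Pearson's r between the RPB10 response and that of another line, which share no library, was 0.444 for RPB3, 0.409 for RPB11, 0.043 for RPB12 and 0.046 for WT. Outside the partners r was 0.459 for RPB8, 0.416 for RPB5, 0.415 for RPB9, 0.411 for RPB1 and 0.322 for RPB7. For RPB6, RPB2 and RPB4 it was 0.093, 0.057 and 0.037. By Spearman's rho RPB11 (0.456) stood above RPB3 (0.443).

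Before any IAA, untreated RPB10 cells differed from untreated WT cells in 5702 genes (31.8%), 2861 higher (16.0%) and 2841 lower (15.8%). Without WT untreated replicate 2 the count was 3439 and without RPB10 untreated replicate 2 it was 3706. Mitochondrial scaling gave 2405, of which 87.5% were higher. Lama2, a laminin chain gene, was higher by 8.03 ± 0.43, and Trh, the thyrotropin-releasing hormone gene, by 2.76 ± 0.11 (adjusted p = 7.5e-24). Timp2, a metalloprotease inhibitor, was lower (log2 difference -2.87 ± 0.35), and so was Ccn1, a matricellular immediate-early gene (-2.79 ± 0.25). Polr2l did not pass (0.43 ± 0.24, adjusted p = 0.17). Cytosolic ribosomal protein genes were higher in 56 of 79 (16.0% over all genes) and lower in none, with a median of 0.41, and p53 targets were higher in 6 and lower in 8 of 28 (15.8% over all genes for lower), with a median of -0.20.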

How the data were processed

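The authors deposited 1 table of whole-number read counts per gene. Per the submitters' processing notes, the tools were STAR and Bowtie2, featureCounts, cutadapt 1.18, DESeq2, SAMtools and deepTools, and the builds mm10 and dm6. The role of each tool, the annotation release and the handling of strand and multimapping reads were not stated. Reads of overlapping or near-identical genes cannot be told apart. Of the table's columns 64 matched a sample and 4 matched none and were not used. GENCODE M21 named 55154 of 55335 genes. No entry lacked a gene name.

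The counts were fitted with edgeR 4.0.16 (R 4.3.3, limma 3.58.1): TMM, filterByExpr, quasi-likelihood tests over 52 libraries in 26 groups with 26 residual degrees of freedom, contrasts for each line and for differences between lines, and Benjamini-Hochberg adjustment at 0.05. SE is the log2 fold change divided by the square root of F. The fit was tested on simulated data. DESeq2 1.42.0, RLE, total-count and mitochondrial scaling, other filters, the 4 libraries alone, a replicate block and leaving out each library were alternatives. The 12 h libraries held 3399838 to 7164928 counts.

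Genes were named by rule: the 15 highest and 15 lowest passing genes with a mean of at least 5 CPM over the 4 libraries, those with no untreated count, the most changed members of 50 lists, and the most different genes between lines. Some genes that meet the rule are not reported here. The members and lists were chosen with earlier results of these data known.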

Additional observations from a re-analysis of the deposited data

Results flagged for a closer look

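The response to IAA was compared between cell lines through the difference of 2 log2 fold changes in 1 model (edgeR's quasi-likelihood test), and the results below stand out because that difference itself passed. They are given as values, and what lies behind them was not tested. It passed for 4589 genes between RPB10 and WT cells, 4740 between RPB10 and RPB3, 2736 between RPB10 and RPB11, and 4339 between RPB10 and RPB12.

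Against WT the RPB10 response was higher in Zfp612 by 4.80, in Plk2 by 4.71, in Cyp1a1 by 4.32, in Nodal by 1.41, in Polr2l by 1.25 and in Polr2a by 1.08. It differed by -4.35 in Mipol1, -3.84 in Ntn1 and -1.94 in Rian. Against RPB3 it was higher in Ubap1l by 5.88, in Chac1 by 5.78, in Vldlr by 4.53, in Nupr1 by 3.84 and in Nodal by 0.90. It differed from RPB3 by -3.39 in Rfx3, -3.28 in Robo1, -2.44 in Pard3 and -1.99 in Rian. Against RPB11 the values were 3.22 for Plk2, 3.13 for Stc2, 3.05 for Tspoap1 and -3.40 for Mipol1. Against RPB12 they were 4.17 for Zfp365, 3.73 for Pmaip1, -3.73 for Sfmbt2 and -4.44 for Mipol1.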

How the results depend on the processing

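The scaling moved the counts most. With library sizes set by mitochondrial mRNAs, 3393 genes changed in RPB10 cells, and 1133, 661 and 1263 differed from WT, RPB11 and RPB12. Untreated RPB10 and WT cells then differed in 2405. The difference of Nodal from RPB3 turned to -0.24. The cause was not tested. Leaving out 1 library at a time, where a lone sample is assumed to vary like the other groups, gave 5305 to 5587 genes for RPB10, 3615 to 3740 against WT, 3802 to 4496 against RPB3, 1944 to 2702 against RPB11, 3347 to 3509 against RPB12 and 3439 to 4339 between untreated RPB10 and WT cells. For RPB10, DESeq2 called 6064 genes and a fit of the 4 libraries alone 8520. The replicate numbers did not pair the RPB10 libraries (correlation of their deviations -0.017), and a replicate block gave 6557 genes in RPB10, 4110, 4305, 2329 and 3811 in the differences from WT, RPB3, RPB11 and RPB12, and 5143 between the untreated lines.

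Of 1724 alternative values of the 135 gene results named, 1671 kept their direction and their side of the threshold, 47 no longer passed, 5 newly passed and 1 reversed. Of the 47, 28 came with mitochondrial scaling, among them the rises of Chac1, Edc4, Flcn, Gpn3, Gtf2e1, H3f3b, Hsf1, Klf10, Med21, Mepce, Neat1, Smad1 and Ulk1, the falls of Zfp42, Polr2e and Trp53 and the differences of Polr2a and Polr2l from WT. With 2 libraries a group, small changes and genes of a few counts were not resolved, and no spike-in count was used to set levels per cell.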
